A study of Homo sapiens with 9 samples.

Results

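The 9 genes described here encode proteins that ovarian carcinomas carry on their surface or release, and that serve as serum markers or as targets for antibodies. They were MUC16, MUC1, MSLN, FOLR1, WFDC2, CLDN3, CLDN4, SLPI and CD24 and were taken by symbol, as 9 of the 58735 genes of the count table. The rule uses no measured value, but the genes were chosen with earlier results of these data known. The transcripts came from SKOV3, a cell line grown from an ovarian adenocarcinoma, in 3 groups of 3 libraries. The groups were cells expressing WT CDK9 (labelled WT), cells expressing WT CDK9 and given an ALK inhibitor for 24 h (labelled Ai), and cells expressing the Tyr19Phe form of CDK9 (labelled Y19F), in which phenylalanine replaces the tyrosine at position 19. CDK9 is the kinase of P-TEFb, the complex that phosphorylates RNA polymerase II and releases it into elongation, and ALK is a receptor tyrosine kinase. The comparisons ask how blocking ALK, or removing the tyrosine, changes transcripts in these cells. The paper describes stable cell lines that carry either form of CDK9. In several of its experiments these were SKOV3 cells depleted of their own CDK9 in which a form was re-expressed. For the RNA-seq it names cells expressing each form and does not state whether their own CDK9 was depleted. Tyr19Phe and WT CDK9 cells may therefore also differ by how each line arose, which cannot be told apart from the mutation. The inhibitor acted for 24 h, while a stable line carries its form of CDK9 throughout. Neither the identity nor the dose of the inhibitor is given for the RNA-seq in the sources used here, and gene counts do not separate an introduced CDK9 transcript from the cell's own. Nothing states that the 3 libraries of a group came from separate cultures, so the p-values measure the spread between these libraries, which may be technical.

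The products fall into a few families. MUC16, whose shed part is the serum antigen CA-125, and MUC1 are membrane-bound mucins, large O-glycosylated proteins that coat the epithelial surface. Mesothelin (MSLN), folate receptor alpha (FOLR1) and CD24 are held at the membrane by a glycosylphosphatidylinositol (GPI) anchor. Mesothelin binds MUC16, folate receptor alpha takes up folate, and CD24 is a small mucin-like glycoprotein recognised by inhibitory receptors of macrophages. Claudin-3 (CLDN3) and claudin-4 (CLDN4) are 4-pass membrane proteins of the tight junction that are abundant in many ovarian carcinomas. WFDC2, known as the serum marker HE4, and SLPI, an inhibitor of neutrophil elastase, are secreted proteins with whey acidic protein (WAP) domains.

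Positions are those of the count table on hg38. MUC16 lies at chr19:8848844-8981342 on the minus strand, MUC1 at chr1:155185824-155192916 on the minus strand, MSLN at chr16:760762-768865 on the plus strand and FOLR1 at chr11:72189558-72196323 on the plus strand. CD24 lies at chr6:106969831-106975627 on the minus strand. CLDN3 (chr7:73768997-73770270, minus) and CLDN4 (chr7:73799542-73832693, plus) are neighbours, 29272 bases apart. SLPI (chr20:45252239-45254564, minus) and WFDC2 (chr20:45469706-45481532, plus) lie 215142 bases apart on chromosome 20.

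RefSeq promoters (GRCh38.p14, 250 bases before to 50 after the start of transcription) were matched by symbol for 6 of the 9 genes. Those of CLDN3 and CLDN4 are shown because these neighbouring genes were both at their lowest in Tyr19Phe CDK9 cells, and that of CD24 because it was by far the most abundant of the 9. Capitals mark the GC box (GGGCGG, either strand) and the E-box bound by ZEB and SNAI repressors (CACCTG, either strand). GC boxes may overlap each other.
CD24, chr6:106975578-106975877, minus strand: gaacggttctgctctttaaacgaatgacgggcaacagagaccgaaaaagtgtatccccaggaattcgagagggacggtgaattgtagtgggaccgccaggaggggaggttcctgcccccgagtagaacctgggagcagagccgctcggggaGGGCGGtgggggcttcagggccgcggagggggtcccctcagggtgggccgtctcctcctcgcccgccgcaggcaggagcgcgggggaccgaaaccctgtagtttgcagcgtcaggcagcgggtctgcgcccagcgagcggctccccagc
CLDN3, chr7:73770221-73770520, minus strand: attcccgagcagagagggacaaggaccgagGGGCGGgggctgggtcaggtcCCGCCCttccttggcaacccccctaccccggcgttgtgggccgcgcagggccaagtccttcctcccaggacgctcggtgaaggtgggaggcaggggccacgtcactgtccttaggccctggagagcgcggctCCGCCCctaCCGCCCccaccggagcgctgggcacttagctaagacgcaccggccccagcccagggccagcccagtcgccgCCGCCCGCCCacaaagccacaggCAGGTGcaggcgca
CLDN4, chr7:73830746-73831045, plus strand: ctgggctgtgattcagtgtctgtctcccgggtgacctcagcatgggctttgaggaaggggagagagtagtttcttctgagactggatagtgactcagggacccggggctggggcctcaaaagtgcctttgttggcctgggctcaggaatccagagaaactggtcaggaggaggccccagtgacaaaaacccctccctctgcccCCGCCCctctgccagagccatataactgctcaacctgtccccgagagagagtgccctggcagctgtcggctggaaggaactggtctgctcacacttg

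The CLDN3 window held 24 CpG and 6 GC boxes, the CD24 window 25 CpG and 1 GC box, and the CLDN4 window 5 CpG and 1 GC box, against a median of 14 CpG over the 27305 promoters of the same length. A GC box was present in 44.6% of all promoters and the E-box in 20.6%. The E-box was found in the CLDN3 window, 37 bases after the start, and not in those of CD24 and CLDN4. It was also present in the windows of MUC16, MUC1 and WFDC2, which are not shown. Such matches describe the letters of these windows only. The RefSeq start of CLDN4 lies inside the interval that the count table gives for the gene. The MUC16 window (chr19:9065702-9066001) lies outside the interval listed for MUC16, which ends at 8981342.

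Depth was similar in WT CDK9 cells (18939449 to 19731228 counts per library) and in ALK inhibitor-treated WT CDK9 cells (18169050 to 20974903), and higher in Tyr19Phe CDK9 cells (26485891 to 29320184). Levels are given as CPM, each library's counts brought to a common total after TMM normalization, a scaling that sets the bulk of genes equal. Differences are therefore relative to the other transcripts, and a change shared by most of them would not show. Detection was given a floor of 3 counts, worth between 0.102 and 0.165 CPM, and floors cover counting error only. Of all genes, 16350 passed edgeR's expression filter and were tested by its quasi-likelihood test with Benjamini-Hochberg adjustment. A gene was called at an adjusted p under 0.05, and the same test gave every adjusted p below. Inhibitor library 2 and Tyr19Phe library 3 stood apart from the others of their groups, with 19944 and 20635 genes counted at least once against 21911 to 22744 in the other libraries of these groups. WT library 3 lay away from the other WT libraries on axis 3 of a principal component analysis, at -44.8 against 3.58 and 12.4. That library was kept where the libraries that stood apart were left out. Of the list of SKOV3 carcinoma markers, 8 of 8 genes were tested, with summed levels of 5313 to 5502 CPM in WT CDK9 cells, 5840 to 5979 with the inhibitor and 5158 to 5351 in Tyr19Phe CDK9 cells. Its members were called in both directions. With the inhibitor 2 were called higher and 1 lower, beside 1.82% and 2.73% of all tested genes. In Tyr19Phe CDK9 cells 2 were called higher and 3 lower, beside 7.61% and 10.4% of all tested genes. Log2 fold changes of the markers in those cells ran from -1.24 (KRT19) to 0.39 (KRT18). None of the 7 leukocyte markers passed the filter, and their summed level was between 0.101 and 0.716 CPM. The 4 fibroblast markers summed to 103 to 107 CPM in WT CDK9 cells, 115 to 149 CPM with the inhibitor and 31.5 to 45.5 CPM in Tyr19Phe CDK9 cells. This was nearly all COL1A1, a collagen gene, called higher with the inhibitor (log2 fold change 0.35, adjusted p = 0.0111) and lower in Tyr19Phe CDK9 cells (-1.46, adjusted p = 1.04e-13), while DCN, LUM and PDGFRA did not pass the filter. The 4 endothelial markers summed to 0.974 to 2.62 CPM, 1.29 to 1.94 CPM and 3.28 to 4.33 CPM in the same order, and KDR, the only one tested, was not called. Their part in the results below was not tested. E-cadherin (CDH1), which marks most epithelia, was close to the floor, with 1 to 18 counts per library. CDK9 itself had 861 to 944 counts per library in WT and inhibitor-treated cells and 1493 to 1578 in the deeper Tyr19Phe libraries (log2 difference from WT 0.18, adjusted p = 0.106, and from inhibitor-treated cells 0.27, adjusted p = 0.00961). ALK had 0 to 5 counts in every library. In bulk RNA, fewer cells that express a gene and less RNA per cell cannot be told apart.

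Of the 9 antigen genes, 7 passed the filter. MUC16 and WFDC2 did not. With the ALK inhibitor, 2 were called lower (FOLR1 and CD24) and 0 higher, where 2.73% of all tested genes were called lower and 1.82% higher. In Tyr19Phe CDK9 cells, 4 were called lower (MSLN, FOLR1, CLDN3 and CD24) and 0 higher, against 10.4% lower and 7.61% higher among all tested genes. In the direct contrast of Tyr19Phe CDK9 cells with ALK inhibitor-treated WT CDK9 cells, MSLN and CLDN4 were called lower and CD24 higher, where 11.1% of tested genes were lower and 9.57% higher. The median log2 fold change over the 7 genes was -0.48 with the inhibitor and -0.83 in Tyr19Phe CDK9 cells, beside medians over all tested genes of -0.0010 and 0.0035. With scaling by library size alone, the split over all genes with the inhibitor turned from 447 lower and 297 higher to 344 lower and 406 higher, and that in Tyr19Phe CDK9 cells from 1695 lower and 1245 higher to 1451 lower and 1544 higher. The antigen genes called numbered 2 and 4 lower and 0 higher with that scaling too. The WT CDK9 libraries served both comparisons, so their values are set side by side and not counted as separate evidence.

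**Figure D1:**
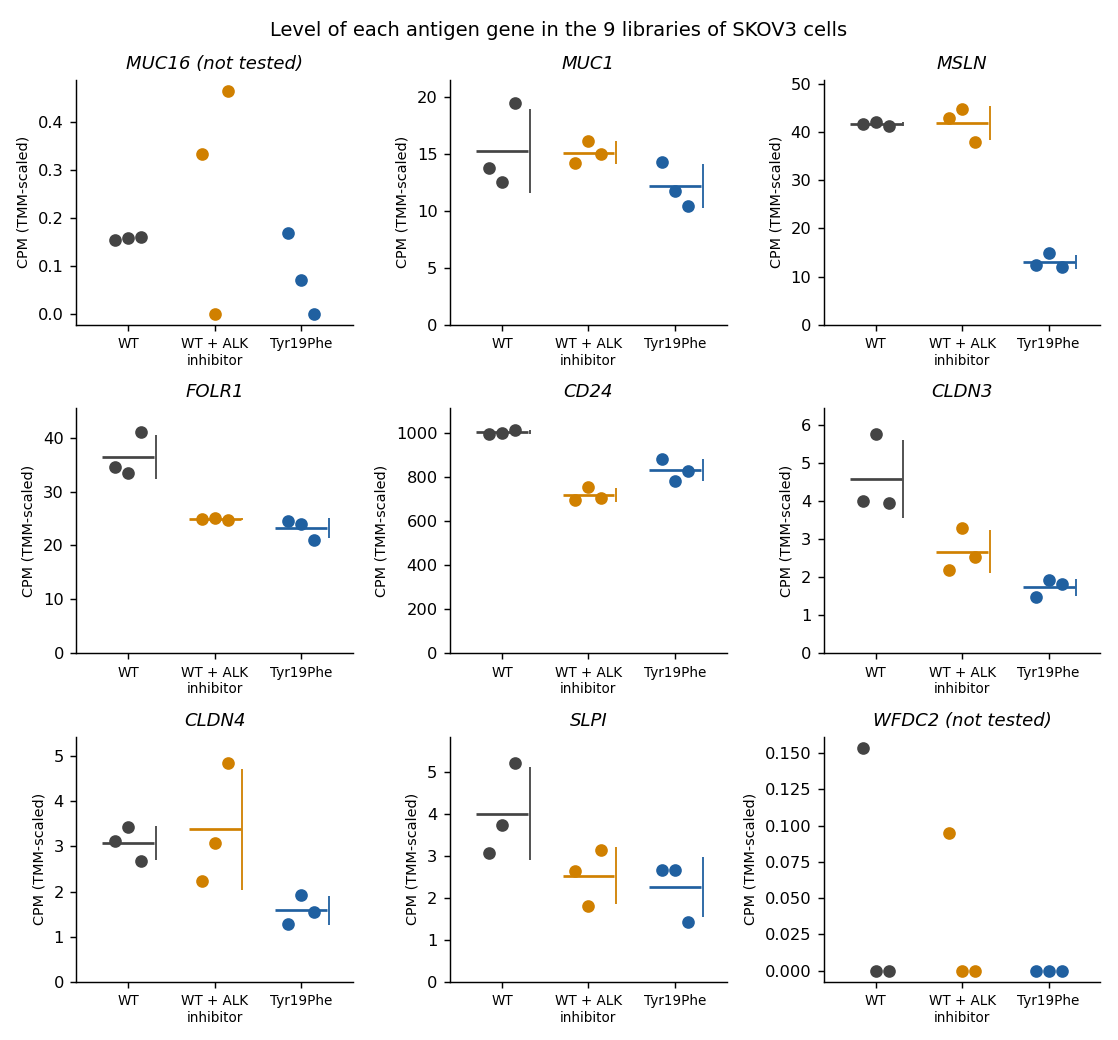
Level of each antigen gene in CPM (TMM-scaled, linear axis) in the 3 libraries of each group, as points. For the 7 tested genes the horizontal line is the mean and the vertical line beside it 1 SD; MSLN stands out with 3 Tyr19Phe libraries between 12.1 and 14.8 CPM and all others above 37 CPM, while MUC16 and WFDC2 stay under 0.5 CPM.

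Levels between genes were compared per length, as CPM per kilobase of the listed gene length. In WT CDK9 cells CD24 was highest at 324 CPM per kilobase, rank 54 among the 13145 tested protein-coding genes. FOLR1 followed at 22.1 and MSLN at 16.3 CPM per kilobase, and their ranges over the 3 libraries (20.3 to 24.9 and 16.1 to 16.5) did not overlap. SLPI stood at 6.74 CPM per kilobase with a range of 5.16 to 8.78, above CLDN3 at 3.58 (3.10 to 4.51) and MUC1 at 3.23 (2.66 to 4.12), which overlapped each other. CLDN4 was the lowest of the tested genes at 0.654 CPM per kilobase, its listed length being 4702 bases against 1274 for CLDN3. The order changed with the group. FOLR1 and MSLN changed places in inhibitor-treated cells (15.1 and 16.3 CPM per kilobase), where FOLR1 ranged from 15.03 to 15.3 and MSLN from 14.8 to 17.5, so that they overlapped. MUC1 (3.20 CPM per kilobase, range 3.01 to 3.42) was above CLDN3 (2.09, range 1.71 to 2.58) in these cells. In Tyr19Phe CDK9 cells MSLN stood at 5.10 CPM per kilobase, close to SLPI at 3.79, and MUC1 at 2.58 was again above CLDN3 at 1.36.

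**Figure D2:**
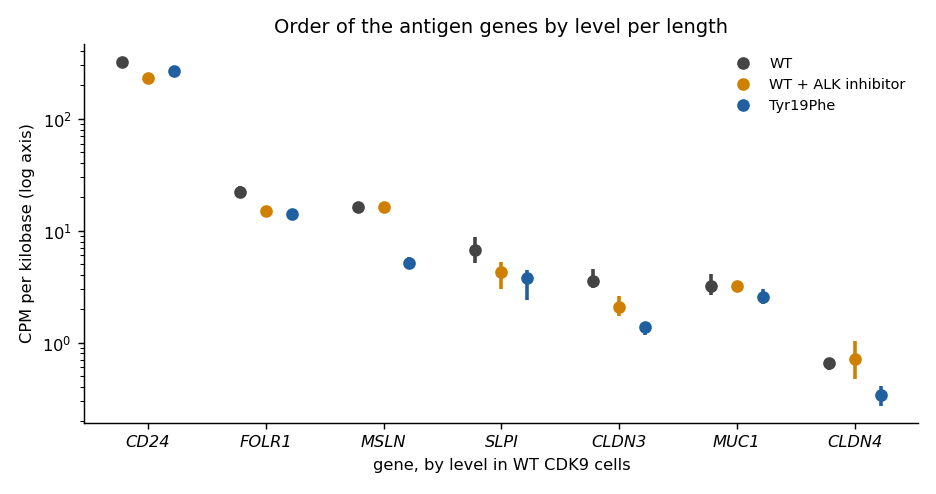
Levels of the 7 tested antigen genes in CPM per kilobase of listed gene length (log axis), ordered by the mean in WT CDK9 cells, with points for group means and bars for the range of 3 libraries. CD24 lies more than 10 times above the next gene in every group, and MSLN leaves its place beside FOLR1 only in Tyr19Phe CDK9 cells.

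Of the 2 mucins, the one that gives the CA-125 antigen was near the floor. MUC16 had 3, 3 and 3 counts in the WT CDK9 libraries, 7, 0 and 9 with the inhibitor, and 5, 2 and 0 in Tyr19Phe CDK9 cells, 32 counts in all. These groups overlapped, no fold is given, and a difference was not detectable at this depth. MUC1 was measured in every library, at 13.8, 12.5 and 19.4 CPM in WT CDK9 cells, 14.2, 16.1 and 14.97 CPM with the inhibitor and 14.3, 11.7 and 10.4 CPM in Tyr19Phe CDK9 cells. WT library 3 was the highest of all 9, and the groups overlapped. The log2 difference was -0.02 with the inhibitor (95% interval -0.33 to 0.30, adjusted p = 0.983) and -0.33 in Tyr19Phe CDK9 cells (-0.64 to -0.01, adjusted p = 0.150). Without WT library 3 the latter became -0.11 (adjusted p = 0.741). MUC1 overlaps AL713999.1, annotated on the same strand, which had 0 counts in every library.

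Other mucins were rarely detected. Of 9 other membrane-bound mucins only MUC20 passed the filter, at 2.44 CPM in WT CDK9 cells, and of 7 secreted mucins only OVGP1, the oviductal glycoprotein, at 1.36 CPM, and neither was called in any comparison. Of 25 enzymes of mucin-type O-glycosylation, 19 were tested. None of them passed the test with the inhibitor, where 2.73% of all tested genes were lower and 1.82% higher. In Tyr19Phe CDK9 cells 1 was called higher, GALNT14 (log2 fold change 0.63, adjusted p = 8.78e-04), and 4 were called lower, beside 7.61% and 10.4% of all tested genes. These included 2 transferases of the same family as GALNT14, GALNT1 (-0.17, adjusted p = 0.00284) and GALNT7 (-0.19, adjusted p = 0.0101). GCNT1, which branches core 1 glycans, was also among them (-0.24, adjusted p = 0.00640). The median over the 19 was -0.02.

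Among the 7 tested genes, MSLN had the largest log2 fold change in Tyr19Phe CDK9 cells. Its levels were 41.6, 42.1 and 41.3 CPM in WT CDK9 cells and 42.9, 44.7 and 37.9 CPM with the inhibitor, but 12.3, 14.8 and 12.1 CPM in Tyr19Phe CDK9 cells. The untreated and treated WT CDK9 libraries overlapped, and each Tyr19Phe library was below all of them. MSLN was 3.19-fold lower in Tyr19Phe than in WT CDK9 cells (log2 fold change -1.67, SE 0.10, adjusted p = 4.91e-14). With the inhibitor the log2 difference was 0.0056 with a 95% interval of -0.19 to 0.20 (adjusted p = 0.992). The direct contrast tests whether these differences from WT are unequal, and it gave -1.68 (SE 0.10, adjusted p = 2.33e-14). Without inhibitor library 2 and Tyr19Phe library 3, the Tyr19Phe difference from WT was -1.62 (adjusted p = 2.39e-11).

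The median log2 fold change in Tyr19Phe CDK9 cells of the 184 tested genes within 5 Mb was 0.02, and 3 of these genes were lower than MSLN. Among these was its direct neighbour MSLNL, the mesothelin-like gene, which lies 563 bases after it on the other strand. MSLNL was measured near 1 CPM (17 to 23 counts in WT CDK9 cells, 5 to 13 with the inhibitor and 0 to 8 in Tyr19Phe CDK9 cells) and was called lower in Tyr19Phe CDK9 cells (log2 fold change -2.47, SE 0.81, adjusted p = 0.0300). CIAO3, the nearest tested gene on the other side, had log2 differences of 0.12 and 0.21 and was not called. MSLN is also a product of the mesothelium, and of 4 other mesothelial markers 3 were tested. UPK3B was called lower with the inhibitor (log2 fold change -0.73, adjusted p = 0.00321) and in Tyr19Phe CDK9 cells (-0.73, adjusted p = 7.81e-04). WT1 and LRRN4 were not called. Lower calls made up 2.73% of the whole tested set in the first of these comparisons and 10.4% in the second.

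FOLR1 was lower than in WT CDK9 cells in both other groups. It was measured at 34.6, 33.5 and 41.1 CPM in WT CDK9 cells, at 24.8, 25.2 and 24.8 CPM with the inhibitor and at 24.6, 23.9 and 21.1 CPM in Tyr19Phe CDK9 cells. Every WT library was above all 6 others, and the inhibitor-treated libraries lay just above the highest Tyr19Phe library. FOLR1 fell by 31.5% with the inhibitor (log2 fold change -0.55, SE 0.10, adjusted p = 5.68e-04) and by 36.2% in Tyr19Phe CDK9 cells (-0.65, SE 0.10, adjusted p = 1.18e-05). The direct contrast was -0.10 with a 95% interval of -0.31 to 0.11 (adjusted p = 0.544). WT library 3 was the highest, and without it the inhibitor effect was -0.45 (adjusted p = 0.0153).

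FOLR1 has relatives nearby whose reads could be shared. In GENCODE 44 its longest coding transcript aligned over 605 bases at 90.9% identity with the pseudogene FOLR1P1, listed in the count table as AP000812.3, and over 125 bases at 93.6% with FOLR2. FOLR2 had 0 counts in all libraries. AP000812.3 had 113, 134 and 113 counts in WT CDK9 cells, 82, 66 and 114 with the inhibitor and 109, 97 and 76 in the deeper Tyr19Phe libraries, against 459 to 770 for FOLR1. AP000812.3 was called lower in Tyr19Phe CDK9 cells (log2 fold change -0.91, adjusted p = 0.00576) and had -0.50 with the inhibitor (adjusted p = 0.320). The antisense entry AP000812.1, which spans FOLR1, had 0 to 9 counts and shares no exon base with it. Both tested neighbours of FOLR1 were called in at least 1 comparison. INPPL1, an inositol phosphatase gene 27378 bases downstream, was called lower with the inhibitor (-0.45, adjusted p = 8.68e-10) and not in Tyr19Phe CDK9 cells (-0.08, adjusted p = 0.191). The pseudogene AP000812.2, 11604 bases upstream, was called lower with the inhibitor (-0.72, adjusted p = 0.00640) and higher in Tyr19Phe CDK9 cells (1.29, adjusted p = 9.75e-08). The 121 tested genes within 5 Mb had medians of -0.0031 and 0.05. With the inhibitor 7.44% of them were called lower and 1.65% higher, beside 2.73% and 1.82% of all tested genes. Within 2 Mb, 46 genes had a median of -0.11 with the inhibitor, and 15.2% were called lower and 2.17% higher. In Tyr19Phe CDK9 cells 9.92% of the 121 were called lower and 14.9% higher, beside 10.4% and 7.61% of all tested genes.

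Of 9 other genes of folate uptake and retention, 7 were tested. None was called with the inhibitor, where 2.73% of all tested genes were lower and 1.82% higher. The reduced folate carrier SLC19A1 had log2 differences of -0.14 and 0.04, and the proton-coupled carrier SLC46A1 had -0.28 and -0.15. FPGS, which retains folate in cells by adding glutamates, was the only one called, higher in Tyr19Phe CDK9 cells (0.36, adjusted p = 2.57e-05). In those cells 7.61% of all tested genes were called higher. FOLR3, the secreted folate receptor, was at 3.30, 1.91 and 2.52 CPM on average in the 3 groups and was not called.

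CD24 was the most abundant of the 9 and the most precisely measured, with 169532 counts in all. Its levels were 994, 1001 and 1013 CPM in WT CDK9 cells, 696, 756 and 706 CPM with the inhibitor and 882, 782 and 826 CPM in Tyr19Phe CDK9 cells. The 3 groups did not overlap, with WT highest and inhibitor-treated cells lowest. CD24 fell by 28.2% with the inhibitor (log2 fold change -0.48, SE 0.04, adjusted p = 1.65e-10) and by 17.2% in Tyr19Phe CDK9 cells (-0.27, SE 0.04, adjusted p = 3.33e-06). It was the single antigen gene higher in Tyr19Phe than in inhibitor-treated cells, by 0.21 on the log2 scale (SE 0.04, adjusted p = 1.87e-04). Of the 45 tested genes within 5 Mb, 2 lay below CD24 with the inhibitor and 6 in Tyr19Phe CDK9 cells. The 3 entries annotated as CD24 pseudogenes together held between 0.0950% and 0.207% of CD24's count in each library. The longest coding transcript of CD24 also aligned with other genes, among them DDX3X (201 bases at 91.5% identity, 12376 to 18529 counts). How reads that fit more than 1 gene were counted was not tested.

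MSLN, FOLR1 and CD24 share the GPI anchor, and genes of its assembly were listed too. Of 32 such genes 31 were tested. With the inhibitor 1 was called higher and 0 lower, beside 1.82% and 2.73% of all tested genes. The 1 was PGAP3 (0.24, adjusted p = 0.0369), which remodels the lipid of the anchor. The listed interval of PGAP3 (chr17:39671122-39696797, minus) overlaps that of ERBB2 (chr17:39687914-39730426, plus). In WT CDK9 cells their means were 86.5 and 1798 CPM. ERBB2 changed in the same directions (0.54 and -0.29), and sharing of reads was not tested. In Tyr19Phe CDK9 cells PGAP3 was called lower (-0.33, adjusted p = 8.11e-04). DPM2 (0.36, adjusted p = 0.00146), a subunit of the enzyme that makes dolichol-phosphate mannose, and MPPE1 (0.56, adjusted p = 0.00842), which trims the anchor, were called higher. Over all tested genes 10.4% were called lower and 7.61% higher in these cells. The medians over the 31 genes were -0.02 and 0.05.

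**Figure D3:**
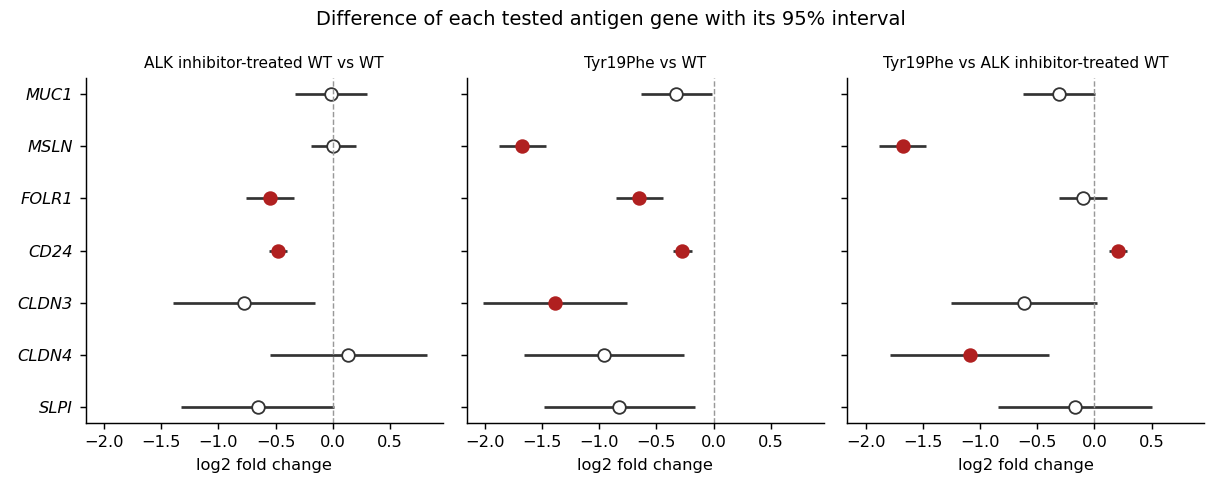
Log2 fold change of the 7 tested antigen genes in 3 comparisons, with 95% intervals; filled points are called at an adjusted p under 0.05 over all 16350 genes. FOLR1 and CD24 lie left of 0 in both comparisons with WT CDK9 cells, and MSLN does so only where Tyr19Phe CDK9 cells enter.

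The claudins were measured at low levels. CLDN3 had 78, 109 and 74 counts in WT CDK9 cells, 46, 60 and 49 with the inhibitor and 44, 54 and 48 in Tyr19Phe CDK9 cells. Scaled for depth these were 3.997, 5.75 and 3.95 CPM, then 2.18, 3.29 and 2.53 CPM, then 1.49, 1.92 and 1.81 CPM. The groups did not overlap, with WT highest and Tyr19Phe lowest. CLDN3 was 2.62-fold lower in Tyr19Phe than in WT CDK9 cells (log2 fold change -1.39, SE 0.31, adjusted p = 0.00126). With the inhibitor the log2 difference was -0.78 (95% interval -1.40 to -0.15), which did not pass the test over all genes (adjusted p = 0.182), and the direct contrast was -0.61 (-1.25 to 0.03, adjusted p = 0.179).

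CLDN4 had 61, 65 and 50 counts in WT CDK9 cells, 47, 56 and 94 with the inhibitor and 38, 54 and 41 in Tyr19Phe CDK9 cells. These were 3.13, 3.43 and 2.67 CPM, then 2.23, 3.07 and 4.85 CPM, then 1.29, 1.92 and 1.55 CPM. The longest coding transcript of CLDN4 aligned, among others, with POLR1A (172 bases at 90.1% identity, 2452 to 3942 counts) and TANGO2 (166 bases at 90.4%, 186 to 449 counts). Sharing of reads with such genes was not tested. The inhibitor-treated libraries straddled the WT libraries, and the Tyr19Phe libraries were below both. The direct contrast was called (log2 fold change -1.09, SE 0.34, adjusted p = 0.0206), and the difference from WT CDK9 cells missed the threshold (-0.96, SE 0.34, adjusted p = 0.0503). The direct call was lost without inhibitor library 3 (-0.74, adjusted p = 0.205) and without Tyr19Phe library 1 (-0.96, adjusted p = 0.0762). The other tested neighbours of this pair, ABHD11 and METTL27, were not called, and the 70 tested genes within 5 Mb of CLDN3 had a median of -0.07 in Tyr19Phe CDK9 cells.

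Other tight junction genes were described from lists. Of 21 other claudins 8 were tested. None was called with the inhibitor, where 2.73% of all tested genes were lower and 1.82% higher. In Tyr19Phe CDK9 cells 1 was called higher, beside 7.61% of all tested genes. That gene was CLDN1, at 135, 118 and 140 CPM in WT CDK9 cells and 189, 187 and 196 CPM in Tyr19Phe CDK9 cells (log2 fold change 0.54, SE 0.06, adjusted p = 7.13e-09), opposite in direction to CLDN3. Of 16 partners at the junction 15 were tested. In Tyr19Phe CDK9 cells 9 of the 15 were called lower and 0 higher, with a median of -0.39, beside 10.4% of all tested genes called lower. The count was also 9 without the libraries that stood apart. Cingulin (CGN), a cytoplasmic plaque protein, went from 32.8 to 15.2 CPM (-1.11, adjusted p = 5.77e-09). The polarity scaffold PATJ (-0.57, adjusted p = 4.22e-07), the scaffold TJP1, known as ZO-1 (-0.39, adjusted p = 1.49e-06), and PALS1 (-0.30, adjusted p = 2.66e-05) were also called lower, as was the transmembrane protein occludin (OCLN, -0.67, adjusted p = 4.72e-05), named after its value was seen.

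With the inhibitor 2 of the 15 partners were called lower and 2 higher, with a median of -0.08, beside 2.73% and 1.82% of all tested genes. CGN (-0.68, adjusted p = 9.97e-05) and PALS1 (-0.20, adjusted p = 0.0108) were lower. CGNL1 (paracingulin, 0.34, adjusted p = 0.0301) and F11R (junctional adhesion molecule A, 0.44, adjusted p = 0.0151) were higher, and these were named after their values were seen. Without the libraries that stood apart the inhibitor counts were 1 lower and 1 higher.

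**Figure D4:**
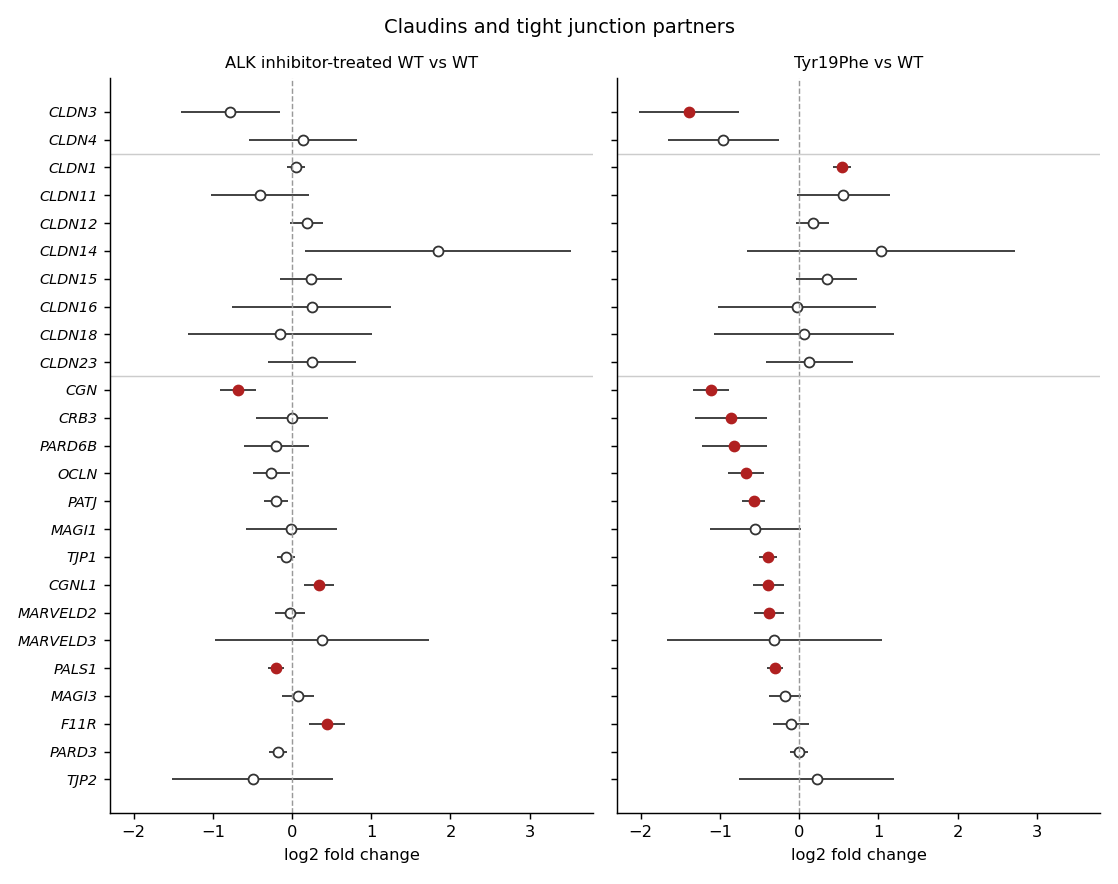
Log2 fold changes with 95% intervals for CLDN3 and CLDN4 (top), the 8 other tested claudins (middle) and 15 tight junction partners (bottom), in inhibitor-treated WT CDK9 cells (left) and Tyr19Phe CDK9 cells (right), each against WT CDK9 cells. Filled points are called at an adjusted p under 0.05; 9 partners are filled on the left side of 0 in Tyr19Phe CDK9 cells, and CLDN1 is filled on the right.

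The secreted WAP proteins were scarce. WFDC2 had 3, 0 and 0 counts in WT CDK9 cells, 2, 0 and 0 with the inhibitor and 0, 0 and 0 in Tyr19Phe CDK9 cells, at or under the floor in each library. SLPI had 60, 71 and 98 counts in WT CDK9 cells, 56, 33 and 61 with the inhibitor and 79, 75 and 38 in Tyr19Phe CDK9 cells. These were 3.07, 3.74 and 5.23 CPM, then 2.65, 1.81 and 3.15 CPM, then 2.67, 2.67 and 1.43 CPM. Each Tyr19Phe library was below all WT libraries, and the inhibitor group overlapped WT. Neither difference passed the test, at -0.66 on the log2 scale with the inhibitor (95% interval -1.33 to 0.01, adjusted p = 0.342) and -0.83 in Tyr19Phe CDK9 cells (-1.49 to -0.16, adjusted p = 0.0764). Of 17 other WAP genes only ANOS1 was tested, and it was not called against WT CDK9 cells. PIGT, the nearest tested gene to WFDC2 and a subunit of the GPI transamidase, was measured at 103 CPM in WT CDK9 cells and was not called.

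Other antigens of ovarian cancer did not share 1 direction. Of 37 listed genes 20 were tested, of which 5 were called higher and 2 lower with the inhibitor, and 3 higher and 5 lower in Tyr19Phe CDK9 cells, with medians of 0.02 and -0.07. Over all tested genes 1.82% were called higher and 2.73% lower with the inhibitor, and 7.61% higher and 10.4% lower in Tyr19Phe CDK9 cells. ERBB2, the HER2 receptor, which is amplified in SKOV3 cells, rose from a mean of 1798 to 2622 CPM with the inhibitor (log2 fold change 0.54, adjusted p = 2.96e-13) and was 1469 CPM in Tyr19Phe CDK9 cells (-0.29, adjusted p = 5.40e-08). The secreted phosphoprotein SPP1 (osteopontin) likewise rose with the inhibitor (0.48, adjusted p = 3.90e-06) and was lower in Tyr19Phe CDK9 cells (-1.11, adjusted p = 3.77e-14). The adhesion molecule L1CAM was lower in both (-0.15, adjusted p = 0.0334, and -0.36, adjusted p = 1.17e-07). EPCAM, the epithelial adhesion molecule, named after its value was seen, was lower in Tyr19Phe CDK9 cells (-0.82, adjusted p = 1.76e-05). The secreted glycoprotein LGALS3BP was higher in Tyr19Phe CDK9 cells (0.31, adjusted p = 2.37e-06). Of 14 epithelial regulators and markers 7 were tested, none was called with the inhibitor and 2 were called lower in Tyr19Phe CDK9 cells. These were the grainyhead factor GRHL1, near 2 CPM in WT CDK9 cells (-2.15, adjusted p = 0.00395), and the splicing regulator ESRP2 (-0.40, adjusted p = 0.0280).

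**Figure D5:**
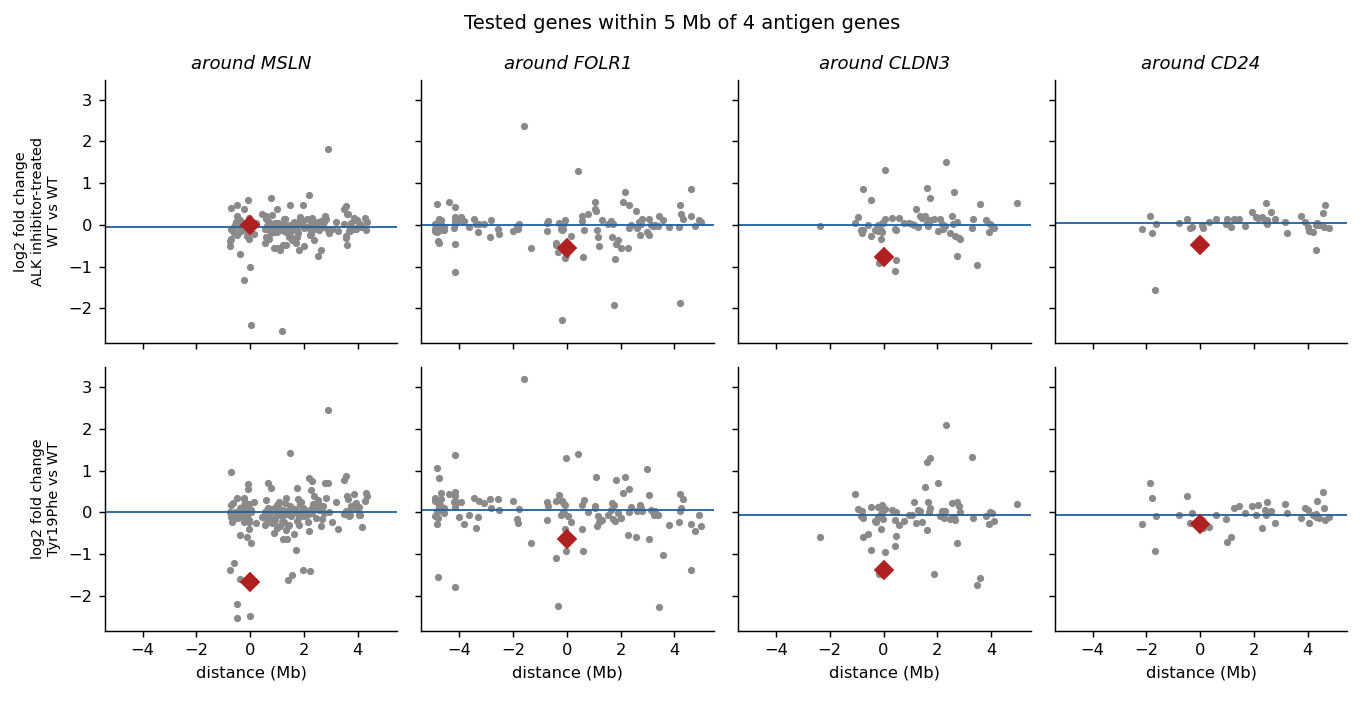
Log2 fold change of every tested gene within 5 Mb of MSLN, FOLR1, CLDN3 and CD24 (grey points, blue line at their median) against distance between gene centres in Mb, with the antigen gene as a red diamond. Upper panels compare inhibitor-treated with untreated WT CDK9 cells and lower panels Tyr19Phe with WT CDK9 cells; the medians lie between -0.07 and 0.05, with the diamonds below them except for MSLN with the inhibitor.

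Over the 9 libraries, the genes whose log2 CPM followed each antigen most closely were named by Pearson's r, as a description. The points share 3 group means and the depth of the Tyr19Phe libraries. MSLN was closest to TMEM98 (r = 0.992), COPS4 (0.991) and GNB4 (0.990), and FOLR1 to ABCA1 (0.976), ASRGL1 (0.960) and PTPN13 (0.954). CD24 was closest to ITGB8 (0.978), CTNNAL1 (0.967) and LRIG1 (0.966). CLDN3 was closest to HSP90AA1 (0.951), CASKIN2 (0.948) and FLNA (0.946), and CLDN4 to NDUFS6 (0.963), RAPGEF5 (0.959) and KIAA1147 (0.957). MUC1 was closest to LYN (0.935), NUCB2 (0.925) and IAH1 (0.921), and SLPI to AL035071.1 (0.952), SRP54 (0.934) and YBX1P10 (0.932). Among the antigen genes themselves, r ranged from -0.03 for CLDN4 and CD24 to 0.834 for FOLR1 and SLPI.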

How the data were processed

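RNA of SKOV3 cells was sequenced by a company. The authors deposited whole-number counts of reads per gene and library, without normalization. The submitters' processing notes name HISAT2 2.0.5, featureCounts 1.5.0-p3 and hg38. The annotation and the strand setting are not given in the sources used here. Of the listed identifiers, 58207 were found in GENCODE 44.

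The test was edgeR 4.0.16 under R 4.3.3 (filterByExpr with a minimum count of 10 and a minimum total of 15, TMM scaling, a quasi-likelihood fit with 1 mean per group over all 9 libraries and 6 residual degrees of freedom, Benjamini-Hochberg adjustment over 16350 genes). DESeq2 1.42.0 was run as an alternative. Log2 CPM used a prior count of 2. Each library held between 18169050 and 29320184 counts. The code was tested on simulated data. Transcripts were aligned with blastn (at least 90% identity over 100 bases).

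The antigen genes and the gene lists were chosen with earlier results of these data known. Named genes were the members, up to 4 called genes per list with the smallest adjusted p against WT, tested neighbours within 100 kb, and the 3 genes most alike per member. Other genes of the lists, called or not, were named after their values were seen. Alternatives were other scalings, filters, DESeq2, protein-coding genes only, fits of the compared groups only, a replicate block and each library left out. Leaving out both libraries that stood apart was added after the data were seen.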

Additional observations from a re-analysis of the deposited data

Results flagged for a closer look

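For 3 of the antigen genes Tyr19Phe CDK9 cells differed from ALK inhibitor-treated WT CDK9 cells in the direct contrast of these groups (edgeR's quasi-likelihood test with Benjamini-Hochberg adjustment over all tested genes). A difference between separately made lines cannot be told apart from the mutation here. MSLN was lower in Tyr19Phe CDK9 cells by -1.68 on the log2 scale (adjusted p = 2.33e-14), with 3 of 3 Tyr19Phe libraries below all inhibitor-treated ones. CLDN4 was lower by -1.09 (adjusted p = 0.0206), again in 3 of 3 libraries, at 38 to 94 counts per library. CD24 was higher by 0.21 (adjusted p = 1.87e-04), in 3 of 3 libraries.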

How the results depend on the processing

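The number of antigen genes called was 2 with the inhibitor under each of 16 alternatives, 4 or 5 in Tyr19Phe CDK9 cells and 2 or 3 in the direct contrast. No log2 fold change of a called gene changed sign. The calls of MSLN, FOLR1, CLDN3 and CD24 against WT were made under every alternative run. CLDN4 decided each difference in these counts. Its difference between Tyr19Phe and WT CDK9 cells was called with at least 10 counts in every library (adjusted p = 0.0383), with DESeq2 (adjusted p = 0.0455) and with the replicate block (adjusted p = 0.0475), and its direct contrast was also lost without both libraries that stood apart (adjusted p = 0.0573). With the replicate block the antigen genes called were 2, 5 and 3. Over all tested genes, 3.02%, 10.8% and 11.4% were then called lower and 1.98%, 8.06% and 9.81% higher, in the same order. Libraries with the same number did not deviate together (correlations of -0.0116 to 0.0260), so the numbers do not pair them. Low counts limit CLDN3, CLDN4 and SLPI, whose counting error alone was 10.7% to 13.1% of the mean count per WT library, and MUC16 and WFDC2 could not be compared at this depth.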
